A study of Mus musculus with 12 samples.

Results

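The 39 Hox genes of the mouse were described in RNA of dorsal root ganglia, which hold the cell bodies of sensory neurons next to the spinal cord. Members were chosen by symbol, as every gene named Hoxa, Hoxb, Hoxc or Hoxd with a number, and all 39 were found among 35534 genes, through 81 transcripts. The ganglia came from 24-week-old mice labelled wild type (WT) or YAC Q84. The latter carry the human ATXN3 gene with an expanded CAG repeat on a yeast artificial chromosome, in addition to their own Atxn3, and serve as a model of spinocerebellar ataxia type 3. The 12 poly(A) RNA libraries comprised 6 labelled WT (3 male and 3 female) and 6 labelled Q84 (1 male and 5 female). The labels give no other allele or treatment. They do not say which ganglia were collected, how many were pooled, or whether libraries came from separate animals. The spread behind each p-value is thus that among libraries and may be technical.

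Hox genes encode homeodomain transcription factors and lie in 4 clusters. Within a cluster the genes are numbered by paralogue group, and low-numbered genes at the 3′ end are active from the hindbrain backwards, while high-numbered genes at the 5′ end start further toward the tail. Nested expression therefore marks position along the body axis: in the embryo, group 10 genes are associated with lumbar levels, group 11 genes with lumbar to sacral levels, and groups 12 and 13 with the sacral and tail region. Adult neurons and other ganglion cells keep part of this code.

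Levels are given as TPM, which are scaled to transcript length and library total, and fold changes come from counts. Total estimated counts ran from 66490481 to 86891563 per library. In 2 libraries 1 Atxn3 transcript, whose level separated the other 10 libraries by label, went against the label. Whether its reads come from the transgene was not tested. This transcript stood at 34.0 TPM in the library labelled WT female 2 and at 0.0612 TPM in the library labelled Q84 female 5. It was at most 0.285 TPM in the other WT libraries and at 62.7 to 79.4 TPM in the other 5 Q84 libraries. Each result is therefore given for all 12 libraries as labelled and for the 10 without these, and no library was moved to another group. Summed neuronal markers were high in every library: the 9 listed sensory neuron genes summed to 2187 to 3425 TPM in WT and 2039 to 2699 TPM in Q84. Most of each sum was Tubb3 and Prph. WT male 1 had the lowest sum of the WT libraries. Its Avil and Scn10a stood at 53.3 and 27.3 TPM, against at least 115.7 and 52.8 TPM in the other WT libraries. Isl1 and Pou4f1 were not at their WT lowest there.

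By mean level, Hox expression reached paralogue group 10 in 3 of the 4 clusters and fell off steeply beyond it. In the Hoxd cluster this rested on few libraries, as Hoxd10 was at 1 TPM or more in 4 of 12. Summed over the 39 genes it was 147.7 ± 16.5 TPM (SD, n = 12), from 113.2 in WT female 3 to 173.5 in Q84 female 4. Of the 39 members, 23 had a mean of 1 TPM or more, and each library held 20 to 23 members at that level (21.6 ± 0.900, SD, n = 12). No member was at 0 in every library.

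By paralogue group, mean sums over 12 libraries were highest in groups 7, 9 and 10. Groups 1, 2 and 3 stood at 8.39 ± 3.57, 3.51 ± 0.479 and 6.15 ± 0.493 TPM (SD, n = 12). Groups 4, 5 and 6 stood at 4.33 ± 0.523, 7.19 ± 0.789 and 5.13 ± 0.909 TPM. Group 7 reached 26.3 ± 5.27 TPM and group 8 reached 14.3 ± 1.35 TPM, the levels associated with the trunk. Group 9 was the highest at 40.2 ± 7.13 TPM, followed by group 10 at 31.6 ± 7.55 TPM. These ranks count coding and noncoding transcripts together, and 1 Hoxa10 transcript listed without coding sequence held 17.7 TPM of the group 10 sum. Group 9 lay above group 10 in 10 of 12 libraries, all but WT male 1 and Q84 female 5, by a mean of 8.69 ± 6.30 TPM (SD, n = 12). Group 11 held 0.608 ± 0.686 TPM, an SD above its mean, and groups 12 and 13 held 0.00953 ± 0.0304 and 0.0205 ± 0.0457 TPM.

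**Figure D1:**
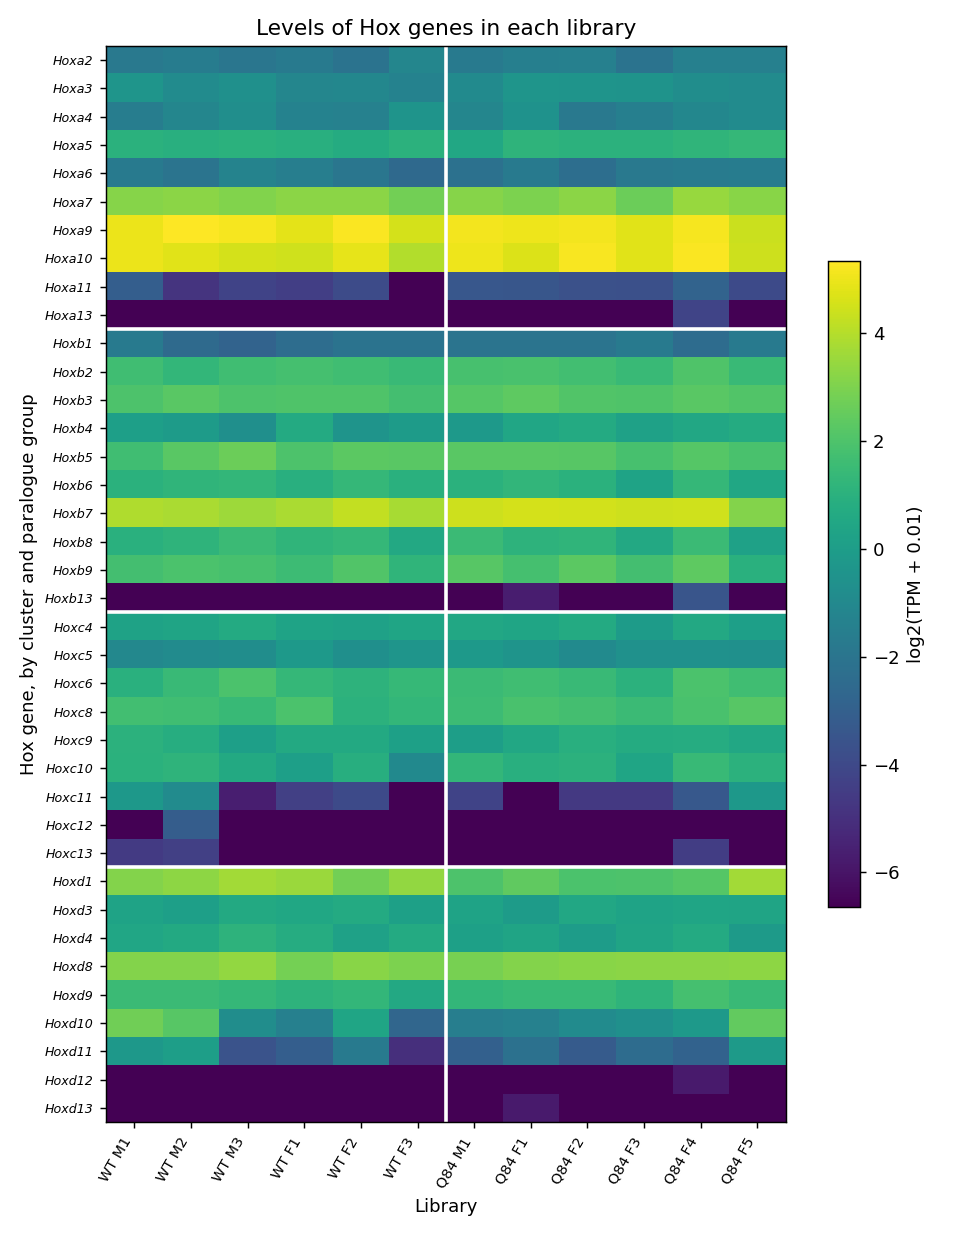
Level of 38 Hox genes (rows, by cluster and paralogue group) in each of the 12 libraries (columns, WT left of the line and Q84 right of it), as log2(TPM + 0.01). Groups 12 and 13 are dark in most libraries, and Hoxd10, Hoxd11 and Hoxc11 are bright in WT males 1 and 2 and in Q84 female 5.

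The clusters contributed unequally. The Hoxa cluster, on chromosome 6, gave 73.3 ± 11.96 TPM (SD, n = 12) from 11 genes, of which 4 had a mean of 1 TPM or more. The Hoxb cluster, on chromosome 11, gave 38.7 ± 7.03 TPM from 10 genes, of which 8 had such a mean. The Hoxd cluster, on chromosome 2, gave 24.2 ± 5.64 TPM with 6 of 9 genes, and the Hoxc cluster, on chromosome 15, gave 11.6 ± 1.72 TPM with 5 of 9. The most 5′ member with a mean of 1 TPM or more was in group 10 in Hoxa, Hoxc and Hoxd and in group 9 in Hoxb, a cluster whose only further member is Hoxb13. For Hoxd the mean was carried by few libraries, and the median of Hoxd10 was 0.609 TPM.

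Hoxa9 and Hoxa10, neighbours at the 5′ part of their cluster, were the highest of all members. Hoxa9 stood at 31.8, 40.5 and 36.5 TPM in WT males 1 to 3, at 29.2, 39.1 and 23.9 in WT females 1 to 3, at 35.4 in the Q84 male and at 33.3, 35.5, 27.8, 35.9 and 21.0 in Q84 females 1 to 5. Q84 female 5 was lowest, and the groups overlapped. Hoxa10, a gene of lumbar patterning, stood at 31.8, 27.6 and 24.0 TPM in WT males, at 22.5, 29.4 and 15.5 in WT females, at 33.2 in the Q84 male and at 25.8, 37.4, 28.1, 38.1 and 21.6 in Q84 females. WT female 3 was lowest and Q84 female 4 highest. Most of the Hoxa10 level, 63.4%, lay on 1 transcript that the annotation lists as a processed transcript with no coding sequence, and its 2 main coding transcripts held 22.0% and 12.4%. For Hoxa9 the 2 main coding transcripts held 63.5% and 25.3%.

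In the Hoxb cluster Hoxb7 and Hoxb5 led. Hoxb5 stood at 3.17, 4.86 and 6.27 TPM in WT males, at 3.98, 5.03 and 4.84 in WT females, at 4.79 in the Q84 male and at 4.78, 4.65, 3.64, 4.54 and 3.69 in Q84 females. WT males 1 and 3 were its lowest and highest libraries, so its range lay within one group. Hoxb9, the most 5′ member of that cluster at such a level, stood at 3.39, 3.87 and 3.58 TPM in WT males, at 2.99, 4.31 and 2.28 in WT females, at 4.62 in the Q84 male and at 3.43, 4.97, 3.39, 5.18 and 1.94 in Q84 females. As with Hoxa9, Q84 female 5 was lowest.

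Hoxc8 and Hoxc6, genes of the thoracic and lower cervical levels, led the Hoxc cluster. Hoxc8 stood at 3.26, 3.14 and 2.71 TPM in WT males, at 3.87, 2.05 and 2.43 in WT females, at 2.99 in the Q84 male and at 3.68, 3.35, 2.84, 3.76 and 4.74 in Q84 females. A transcript that retains an intron held 64.3% of that level. Hoxc6 stood at 1.96, 2.77 and 3.89 TPM in WT males, at 2.56, 2.11 and 2.59 in WT females, at 2.89 in the Q84 male and at 3.17, 2.78, 2.04, 3.79 and 3.15 in Q84 females. Hoxc9, which acts in thoracic motor neurons, stood at 2.06, 1.76 and 1.08 TPM in WT males, at 1.52, 1.55 and 1.10 in WT females, at 1.04 in the Q84 male and at 1.45, 1.91, 1.64, 1.72 and 1.46 in Q84 females. For these 3 genes the groups overlapped.

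The Hoxd cluster was led by Hoxd8 and Hoxd1, members from its middle and its 3′ end. Hoxd8 stood at 8.69, 8.56 and 10.7 TPM in WT males, at 7.15, 9.32 and 7.87 in WT females, at 7.28 in the Q84 male and at 8.81, 9.40, 9.40, 9.62 and 9.98 in Q84 females. Hoxd9 stood at 2.90, 2.91 and 2.51 TPM in WT males, at 2.13, 2.46 and 1.47 in WT females, at 2.46 in the Q84 male and at 2.699, 2.68, 2.24, 3.45 and 2.76 in Q84 females. Both varied little between libraries beside Hoxd10, their neighbour on the 5′ side.

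The other tested members were low or moderate and are given by range. Hoxa2, Hoxa4, Hoxa6, Hoxb1 and Hoxc5 had means of 0.223 to 0.661 TPM, so groups 1, 2 and 4 to 6 were thinly expressed from at least 1 cluster each. Among genes of the hindbrain and neck, Hoxb2 and Hoxb3 had means of 3.20 ± 0.470 and 4.28 ± 0.482 TPM, and Hoxb4, Hoxc4, Hoxd3 and Hoxd4 had means of 1.16 to 1.39 TPM. Hoxa5 stood at 2.00 ± 0.292 TPM, Hoxb6 at 2.04 ± 0.408, Hoxb8 at 2.17 ± 0.572 and Hoxa7 at 8.88 ± 1.34 (SD, n = 12 each). For Hoxb3 and Hoxd4, 59.5% and 58.7% of the level lay on transcripts listed as processed, without coding sequence.

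Groups 10 to 13 held 21.6% ± 3.78 of summed Hox TPM (SD, n = 12), from 14.3% in WT female 3 to 27.8% in WT male 1. The share was 20.2% ± 4.76 in WT and 22.9% ± 2.12 in Q84 (SD, n = 6 each), and the groups overlapped. Over the 10 libraries it was 20.1% ± 5.30 in WT and 22.7% ± 2.33 in Q84 (SD, n = 5 each). Counted on coding transcripts alone it was 11.4% over the 12 libraries, because much of the Hoxa10 level left the sum.

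**Figure D2:**
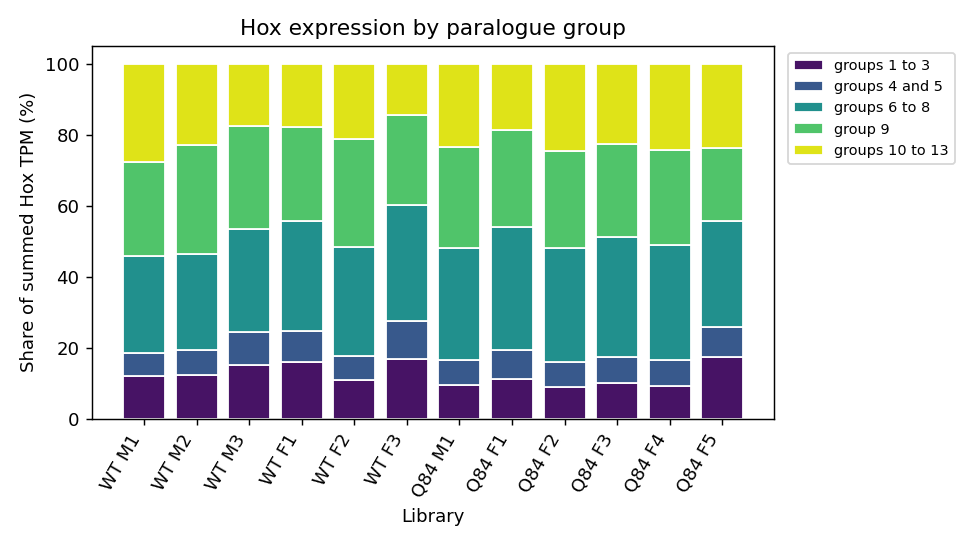
Share of summed Hox TPM (vertical axis, %) held by 5 bands of paralogue groups in each of the 12 libraries (horizontal axis). Groups 10 to 13, at the top of each bar, run from 14.3% in WT female 3 to 27.8% in WT male 1.

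Libraries labelled alike differed in the caudal members Hoxd10, Hoxd11 and Hoxc11. Hoxd10, which acts with its group 10 paralogues in lumbar motor neurons and the hindlimb, stood at 6.68, 4.65 and 0.576 TPM in WT males 1 to 3, at 0.367, 1.33 and 0.146 in WT females, at 0.344 in the Q84 male and at 0.374, 0.537, 0.643, 0.863 and 5.55 in Q84 females 1 to 5. Hoxd11, a group 11 gene of the sacral region and the limb, stood at 0.839, 1.04 and 0.0737 TPM in WT males, at 0.110, 0.301 and 0.0203 in WT females, at 0.118 in the Q84 male and at 0.212, 0.1001, 0.179, 0.125 and 0.914 in Q84 females. Hoxc11, of the same group in another cluster, stood at 0.835, 0.539 and 0.00982 TPM in WT males, at 0.0383, 0.0549 and 0 in WT females, at 0.0435 in the Q84 male and at 0, 0.0291, 0.0294, 0.0873 and 0.829 in Q84 females. All 3 genes were highest in the same 3 libraries, WT male 1, WT male 2 and Q84 female 5, and WT and Q84 each held both high and low libraries.

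These values rest on unequal numbers of reads. Hoxd10 had 616, 435 and 510 estimated counts in those 3 libraries and 11 to 107 in the other 9. Hoxd11 had 140, 193 and 156 against 3 to 48, and Hoxc11 had 87, 57 and 86 against 0 to 8. The Atxn3 transcript named above was at 0, 0 and 0.0612 TPM in the 3 libraries, and it was also at 0.285 TPM or less in WT male 3 and WT females 1 and 3, where the 3 Hox genes were low. For Hoxd11, 94.5% of the level lay on a transcript listed as processed, and 5.50% on the coding transcript.

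The other members of groups 10 and 11 did not share that pattern. Hoxc10 stood at 2.03, 2.22 and 1.54 TPM in WT males, at 1.06, 1.79 and 0.502 in WT females, at 2.43 in the Q84 male and at 1.90, 2.04, 1.33, 2.71 and 2.05 in Q84 females, with Q84 female 4 highest. Hoxa11 stood at 0.110, 0.0247 and 0.0428 TPM in WT males, at 0.0367, 0.0573 and 0 in WT females, at 0.0852 in the Q84 male and at 0.0836, 0.0676, 0.0658, 0.133 and 0.0554 in Q84 females, from at most 14 counts. Its groups overlapped. WT female 3 was the lowest library for Hoxa10, Hoxc10, Hoxd9 and Hoxd10, and for Hoxa11 and Hoxc11 it was listed at 0.

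**Figure D3:**
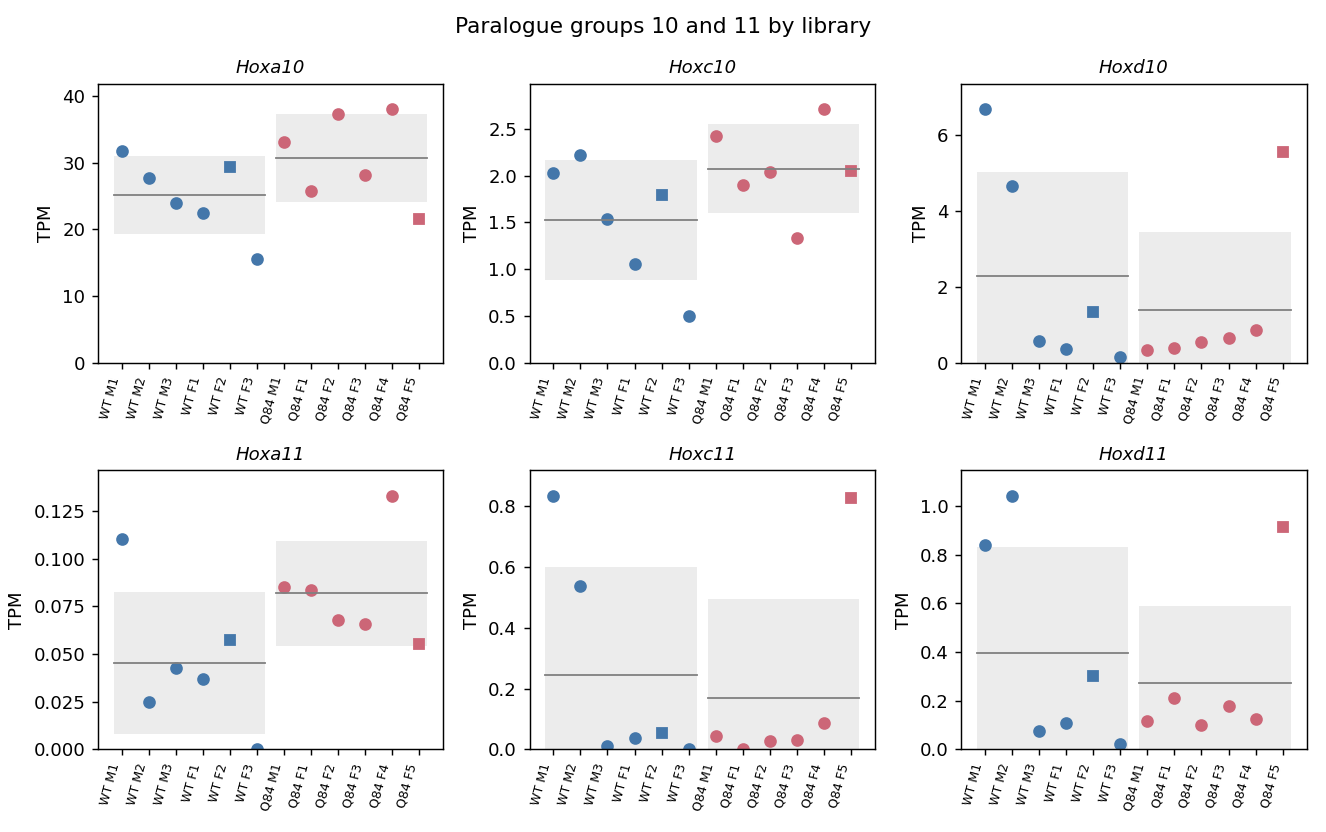
TPM (vertical axes, each from 0) of 6 members of groups 10 and 11 in each library (WT blue, Q84 red; squares mark WT female 2 and Q84 female 5). Lines and bands show each labelled group's mean ± SD (n = 6); Hoxd10, Hoxd11 and Hoxc11 stand high in WT males 1 and 2 and Q84 female 5, and Hoxa10, Hoxc10 and Hoxa11 do not.

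Hoxd10 and Hoxd11 lie side by side near the 5′ end of the Hoxd cluster, and Hoxd1 lies at its 3′ end. Their promoters are shown because the level of these genes separated libraries in different ways. The sequences are the 250 bases before the transcript start, from RefSeq on GRCm38.p6, on the plus strand. Capitals mark matches to 3 motifs, each read on both strands, and none of the matches shown overlaps another. The first motif is the E-box CACGTG. The second is the box named for its letters CCAAT, which reads ATTGG on the other strand. The third is TGATNNAT, which PBX and HOX proteins can bind together. Hoxd10 is read from chr2:74691641-74691890, Hoxd11 from chr2:74682073-74682322 and Hoxd1 from chr2:74762730-74762979.
Hoxd10: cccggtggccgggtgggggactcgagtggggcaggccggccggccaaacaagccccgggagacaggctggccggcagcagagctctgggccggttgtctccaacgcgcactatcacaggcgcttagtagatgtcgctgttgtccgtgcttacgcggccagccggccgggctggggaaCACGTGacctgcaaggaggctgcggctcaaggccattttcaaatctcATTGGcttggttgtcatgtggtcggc
Hoxd11: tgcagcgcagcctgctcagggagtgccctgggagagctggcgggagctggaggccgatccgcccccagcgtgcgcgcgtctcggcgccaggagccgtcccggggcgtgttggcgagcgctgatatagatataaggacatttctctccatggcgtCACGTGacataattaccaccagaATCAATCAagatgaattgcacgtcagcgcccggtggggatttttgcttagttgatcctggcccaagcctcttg
Hoxd1: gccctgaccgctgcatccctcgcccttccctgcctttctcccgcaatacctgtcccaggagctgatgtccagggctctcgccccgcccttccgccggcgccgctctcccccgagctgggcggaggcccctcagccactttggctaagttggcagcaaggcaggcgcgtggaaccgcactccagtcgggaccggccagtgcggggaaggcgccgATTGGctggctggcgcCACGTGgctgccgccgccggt

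All 3 windows hold a CACGTG, which is found in 6.02% of 32851 promoters of that length and in 4 of the 24 listed for Hox genes, the fourth being that of Hoxd13. Hoxd10 and Hoxd1 also hold a CCAAT box, found in 33.8% of all promoters and in 14 of the 24. Hoxd11 holds the TGATNNAT motif, found in 7.68% of all promoters and in 4 of the 24, the others being those of Hoxa2, Hoxb1 and Hoxb8. A second listed start of Hoxd11 holds none of the 3 motifs. These motifs were picked after the sequences were read, and a match describes letters, not binding. Promoters were listed for 22 of the 39 members, and Hoxb7, Hoxc10 and Hoxc11 had no entry.

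The members of groups 12 and 13 were almost without reads. Hoxa13, Hoxb13, Hoxc12, Hoxc13, Hoxd12 and Hoxd13 each had between 0 and 8 estimated counts in any library and were not tested, and the other 33 members were tested in both sets of libraries. Hoxc12 had 5 counts, all in WT male 2. Hoxc13 had 4, 5 and 4 counts in WT male 1, WT male 2 and Q84 female 4, and Hoxa13 and Hoxb13 had 5 and 8 counts in Q84 female 4. Q84 female 4 was also the library with the most of the spinal cord glia transcripts Mobp and Mog. A link between these counts and those transcripts was not tested.

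Q84 and WT were compared with edgeR's quasi-likelihood test, which is two-sided, with sex in the model, adjusted by Benjamini-Hochberg over all genes tested. With all 12 libraries as labelled, 0 of 33 Hox genes passed an adjusted p of 0.05 and 6 had an unadjusted p below it. DESeq2 called 0 of 33, against 614 of 17808 genes, or 3.45%. Over all genes the edgeR test called 1 of 18868, or 0.0053%, and 2692 had an unadjusted p below 0.05. Fitted values were higher in Q84 for 26 members and lower for 7, and the median log2 fold change was 0.16 for Hox genes beside 0.01 for all genes. With the 10 libraries, 2 of 33 passed, Hoxd1 lower and Hoxb7 higher in Q84, against 6.45% of 18714 genes (1.52% higher and 4.93% lower). Of the 33, 22 had higher and 11 lower fitted values, with a median of 0.08 beside 0.01 for all genes. A count of 2 in 33 is near the background share.

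**Figure D4:**
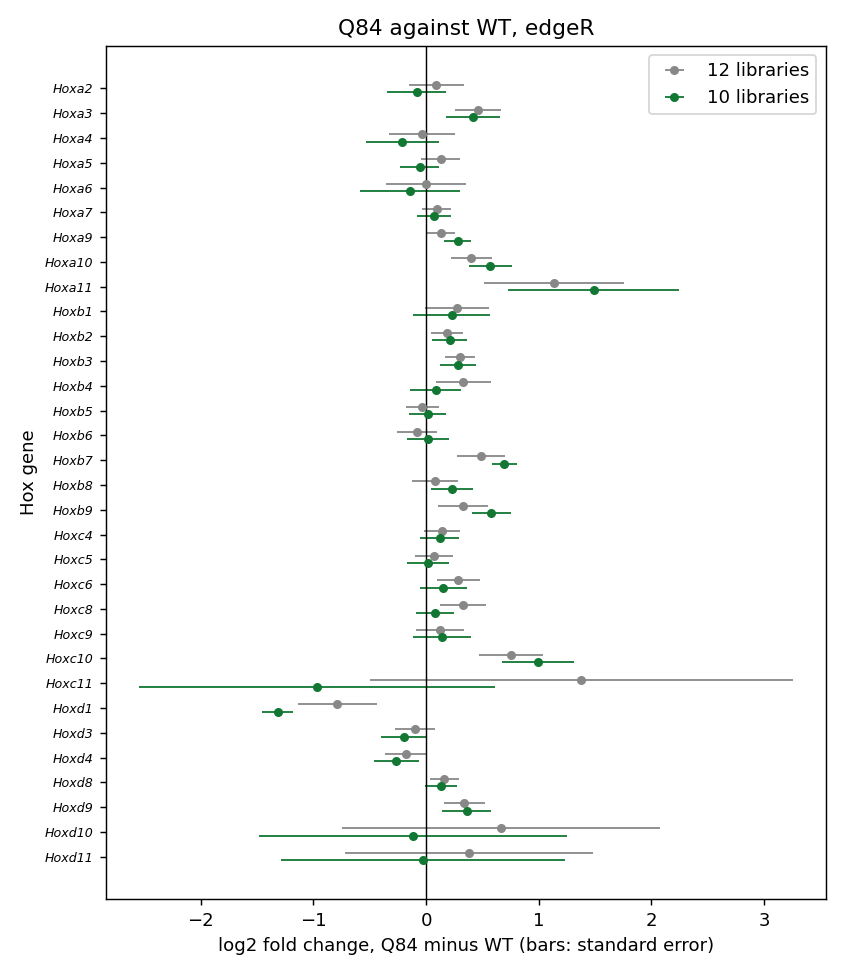
Log2 fold change of Q84 against WT (horizontal axis, bars are standard errors) for 32 tested Hox genes, from all 12 libraries (grey) and from 10 (green). Hoxd1 lies lowest of the well-measured members in the 10 libraries at -1.32, Hoxb7 lies at 0.70, and Hoxc11, Hoxd10 and Hoxd11 have bars that span more than 1 log2 unit each way.

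Hoxd1, the most 3′ member of its cluster, is known in the mouse for its part in the wiring of nociceptors, the sensory neurons that report pain. It stood at 8.55, 9.75 and 12.7 TPM in WT males 1 to 3, at 11.5, 6.86 and 10.5 in WT females 1 to 3, at 3.97 in the Q84 male and at 5.36, 3.83, 3.92, 4.54 and 12.9 in Q84 females 1 to 5. The Q84 male and Q84 females 1 to 4 all lay below every WT library, and Q84 female 5 was the highest of the 12. Over 12 libraries the log2 fold change was -0.79 (SE 0.35), with an edgeR adjusted p of 0.341. Over the 10 libraries, Hoxd1 fell from 10.6 ± 1.59 TPM in WT to 4.32 ± 0.644 TPM in Q84 (SD, n = 5 each). The edgeR fold change on the log2 scale was -1.32 (SE 0.14), adjusted p 0.000164. Leaving out only Q84 female 5 gave -1.16 with an adjusted p of 0.00205. In the female libraries of the 10 the fold change was -1.23 (SE 0.15, edgeR adjusted p = 0.000768).

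Hoxb7, a homeodomain gene of the trunk, moved the other way. It stood at 14.8, 14.0 and 12.001 TPM in WT males, at 14.3, 19.2 and 13.5 in WT females, at 21.2 in the Q84 male and at 24.1, 23.0, 21.8, 22.1 and 8.69 in Q84 females 1 to 5. Here too the Q84 male and Q84 females 1 to 4 lay on one side of every WT library and Q84 female 5 lay beyond the opposite end, while WT female 2 was the highest of the WT libraries. Over 12 libraries the log2 fold change was 0.49 (SE 0.21), with an edgeR adjusted p of 0.324. Over the 10 libraries Hoxb7 rose from 13.7 ± 1.08 to 22.4 ± 1.12 TPM (SD, n = 5 each). The edgeR fold change on the log2 scale was 0.70 (SE 0.11), adjusted p 0.00281. With replicate number added to the edgeR model as a block, it did not pass (adjusted p = 0.189). Leaving out only Q84 female 5 gave 0.62 with an adjusted p of 0.00449. A single coding transcript held 99.3% of the level.

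**Figure D5:**
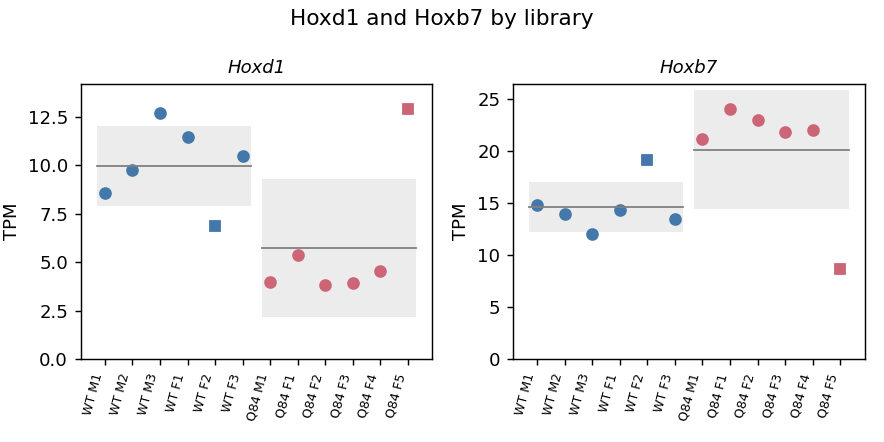
TPM of Hoxd1 and Hoxb7 (vertical axes, from 0) in each library (WT blue, Q84 red; squares mark WT female 2 and Q84 female 5), with each labelled group's mean ± SD (n = 6) as line and band. Q84 female 5 lies apart from the other 5 Q84 libraries in both genes, at 12.9 and 8.69 TPM.

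The groups did not overlap for these 2 genes alone among the 33 in the 10 libraries, where 8.68% of all genes had groups that did not overlap, and for 0 of 33 in the 12, where 1.56% did. In bulk tissue, fewer cells of a type and less RNA per cell cannot be told apart. Of 9 sensory neuron markers tested in the 10 libraries, 2 fell and 7 did not pass. Pou4f1 changed by -0.78 (SE 0.16, adjusted p = 0.0123) and Ntrk2 by -0.37 (SE 0.07, adjusted p = 0.00792). Pou4f1 was at 65.3 TPM in Q84 female 5, which was the highest library for Hoxd1 too, and between 19.5 and 26.97 TPM in the other 5 Q84 libraries. The mural cell marker Rgs5 changed by -1.38 (SE 0.13, adjusted p = 8.00e-05), 1 of 3 mural genes. The other mural genes had fitted values of the opposite sign, at 0.60 for Pdgfrb (SE 0.22, adjusted p = 0.151) and 0.54 for Acta2 (SE 0.27, adjusted p = 0.310), and the median of the list was 0.54. The mural sum, most of it Rgs5, ran from 119.1 to 190.3 TPM in WT and from 56.2 to 86.5 TPM in Q84 in the 10 libraries, without overlap. Over all 12 it ran from 108.0 to 190.3 and from 56.2 to 162.0 TPM, with overlap. The fibroblast gene Pdgfra rose by 0.61 (SE 0.10, adjusted p = 0.00303), the 1 of 6 that passed. All 6 fibroblast genes had positive fitted values, with a median of 0.52. Their sum ran from 697 to 942 TPM in WT and from 810 to 1059 TPM in Q84. Of 6 spinal cord glia genes tested, 1 fell, Aqp4 at -0.72 (SE 0.14, adjusted p = 0.00762), while 3 of the 7 listed stayed below 1 TPM in every library. The other tested genes of that list had fitted values of 1.55 for Mog, 1.52 for Opalin, 2.02 for Olig1, 0.22 for Slc1a2 and -0.37 for Mobp, and the median was 0.87. Q84 female 4 held the most Mobp, at 8.80 TPM against at most 3.26 in any other library, and the most Mog, at 1.93 TPM against at most 0.186. It was also the highest library for 8 of the 23 Hox members with a mean of 1 TPM or more. Of 3 skin genes, Krt14 and Krt15 fell, and the skin sum was 118 TPM in WT female 1 and at most 0.238 TPM in every other library. No gene passed in the lists for satellite glia, Schwann cells, endothelium, macrophages, motor neurons, skeletal muscle, adipocytes or red blood cells, and the kidney genes stayed below 1 TPM. Median fitted values were nonetheless 2.51 for the 4 muscle genes, 1.54 for the 3 adipocyte genes and 1.36 for the 4 red blood cell genes. In the 10 libraries the muscle sum ran from 4.78 to 247 TPM in WT and from 4.63 to 988 TPM in Q84. The adipocyte sum ran from 0.971 to 1.42 TPM in WT and from 0.758 to 11.9 TPM in Q84, and the red blood cell sum from 594 to 3428 TPM in WT and from 1587 to 6759 TPM in Q84. Each of these was highest in the Q84 male. The part of these cell types in the Hox differences was not tested.

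Other members came near the threshold in the 10 libraries without passing it. On the log2 scale Hoxb9 differed by 0.58 (SE 0.17, adjusted p = 0.0727), Hoxc10 of 0.99 (SE 0.32, adjusted p = 0.0940) and Hoxa10 of 0.57 (SE 0.19, adjusted p = 0.113), all by edgeR. DESeq2 called these 3 beside Hoxd1 and Hoxb7, 5 of 33 in all, against 10.1% of all genes it tested. In the female libraries of the 10, edgeR called Hoxa9, Hoxa10, Hoxb7, Hoxc10 and Hoxd1, 5 of 31 tested, against 5.12% of all genes. Hoxa9 had 0.28 (SE 0.12, adjusted p = 0.220) and Hoxa11 had 1.49 (SE 0.76, adjusted p = 0.305). For Hoxa9, Hoxa10, Hoxa11, Hoxb9 and Hoxc10, the WT and Q84 values of the 10 libraries overlapped. Hoxa3, a gene of the hindbrain and neck, was among the 3 smallest p in the 12 libraries at 0.46 (SE 0.20, adjusted p = 0.330) and had 0.41 (SE 0.24, adjusted p = 0.373) in the 10. It stood at 0.739, 0.548 and 0.628 TPM in WT males, at 0.441, 0.454 and 0.389 in WT females, at 0.528 in the Q84 male and at 0.744, 0.729, 0.703, 0.576 and 0.543 in Q84 females.

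For Hoxd10, Hoxd11 and Hoxc11 neither set of libraries gave a difference that could be told from the spread within groups. In the 12 libraries the fitted log2 fold changes were 0.66 (SE 1.41), 0.38 (SE 1.10) and 1.38 (SE 1.88), with edgeR adjusted p of 0.882, 0.919 and 0.800. Mean TPM had the opposite order, at 2.29 in WT and 1.39 in Q84 for Hoxd10, 0.398 and 0.275 for Hoxd11, and 0.246 and 0.170 for Hoxc11, and without sex in the model the fitted signs turned. In the 10 libraries the values were -0.12 (SE 1.37), -0.03 (SE 1.26) and -0.97 (SE 1.58). The sign of each changed between the sets. The remaining tested members had fitted values between -0.26 and 0.36 in the 10 libraries and none passed.

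HOX proteins bind DNA with TALE partners, and their genes are held active or silent by Trithorax and Polycomb proteins. Of 9 PBX and MEIS cofactor genes, 0 passed in the 10 libraries. The smallest p belonged to Meis1, at 0.27 (SE 0.13, adjusted p = 0.275), and Pknox1, at 0.13 (SE 0.09, adjusted p = 0.478). Of 17 Polycomb genes, 1 passed, a count near the 6.45% of all genes called in the 10 libraries. Bmi1, a subunit of Polycomb repressive complex 1, rose by 0.35 (SE 0.09, edgeR adjusted p = 0.0323). It ranged from 28.8 to 33.6 TPM over the 5 WT libraries and from 35.0 to 41.0 TPM over the 5 Q84 libraries. Of 9 Trithorax and H3K27 demethylase genes, 0 passed, with Ash2l at -0.15 (SE 0.08) and Kdm6a at 0.12 (SE 0.07). With the 12 libraries 0 genes of any of these lists passed.

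Upstream signals of axial position are retinoic acid, CDX factors and Gdf11. Of 12 such genes 8 were tested and 0 passed, with Rarg, a retinoic acid receptor, at -0.38 (SE 0.17, adjusted p = 0.236) and Cyp26b1, which degrades retinoic acid, at -0.46 (SE 0.24, adjusted p = 0.316). Of 9 genes flanking the clusters 7 were tested and 0 passed, with Smug1, beside Hoxc, at -0.24 (SE 0.10, adjusted p = 0.193) and Skap2, beside Hoxa, at 0.13 (SE 0.08, adjusted p = 0.410). The 12 noncoding genes of the clusters on the list, Hotair among them, were not among the transcripts used here.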

How the data were processed

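Poly(A) RNA of 12 ganglion libraries was prepared from 200 ng with NEBNext kits, per the labels' protocols. Per the submitters' processing notes, GRCm39 was the build and the tools were STAR 2.7.10b and kallisto 0.46.2, with no role stated. No source used here gives the strand setting. Single values of 1 member are not reported here, and it counts only in sums and totals. The deposited tables hold the authors' estimated counts, effective lengths and TPM for 116313 transcripts per library, per the file headers. The deposited TPM values are scaled to transcript length and to a fixed total, the estimated counts are not scaled, and effective lengths served only the length-scaled alternative.

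Transcripts were assigned to genes by identifier without version in GENCODE M21 (98.3% matched; the rest held 0.756 to 0.807% of counts). Reads shared by overlapping transcripts are divided by likelihood, and reads of antisense genes cannot be told apart without strand. Counts were added up per gene, rounded and passed through filterByExpr (4 genotype-by-sex groups) and TMM scaling. The robust quasi-likelihood test of edgeR 4.0.16 was then run on sex and genotype, with a Benjamini-Hochberg threshold of 0.05. That test reports no standard error. Each SE given is the absolute log2 fold change divided by the square root of the F statistic. The procedure was tested on simulated data. With the 10 libraries it recovered 22%, 60%, 84% and 94% of 1.5-, 2-, 4- and 8-fold changes, with 8 false calls among 138. With the 12 it recovered 22%, 48%, 84% and 86%, with 3 false calls among 123. Changes of 2-fold or less were thus often missed. DESeq2 1.42.0, other scaling and filters, length-scaled TPM, female libraries, no sex term, a replicate block and leaving out single libraries were tried as alternatives.

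The members and lists were chosen, and the set of 10 libraries defined, with earlier results of these data known. Values in every library are given for the 2 highest members of each cluster, tested members of groups 9 to 13, the most 5′ member of each cluster at 1 TPM, members that passed, and the 3 of smallest p in each fit; genes of the cofactor, chromatin, axial input and flanking lists are named where they passed in the 10 libraries, and otherwise the 2 of smallest p, and of cell type markers those that passed, others being picked after their values were seen. Every pair of libraries within a group differed by more than sampling noise (chi-square per degree of freedom 28.9 or more). Counting error is the only error that depth describes here. Coordinates are on GRCm38.p6 and were used for promoters only.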

Additional observations from a re-analysis of the deposited data

Results flagged for a closer look

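Among the 5 libraries labelled Q84 female, the gap between the highest or lowest library and its nearest neighbour, divided by the whole range on log2 CPM, passed 0.71 in 6 of 35 quantities examined, where chance flags about 1 in 20 groups. Q84 female 5 stood apart in 4 of them. For Hoxb7 it was low, with a ratio of 0.8995, and for Hoxd1 it was high, with a ratio of 0.7431. It was also high for Hoxd10, with a ratio of 0.72, and for Hoxd11, with a ratio of 0.7199. In the library labelled Q84 female 3, Hoxa2 was low at 0.228 TPM, with a ratio of 0.7813. In the library labelled Q84 female 2, Hoxa6 was low at 0.190 TPM, with a ratio of 0.7479.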

How the results depend on the processing

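Over 607 alternatives for the 17 members given in every library, 559 kept direction and side of the threshold, 11 passed it newly, 1 no longer passed and 36 changed sign. Unless a cause is named, the cause was not tested. Hoxd1 in the 10 libraries passed under all 17 alternatives (-1.38 to -1.19). Hoxb7 passed under 16 of 17 and not with a replicate block (0.66, adjusted p = 0.189).

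In the 10 libraries the number of Hox genes called was 5 with DESeq2 (10.1% of all genes) and 5 in female libraries alone (5.12% of all genes), where Hoxa9 passed in place of Hoxb9, and with each library left out it was 2 to 3 (Hoxa9 was added without the Q84 male, Hoxa10 without WT male 1). Over all genes 1882 were called with DESeq2 and 680 to 1978 with each library left out, the lowest without the Q84 male and the highest without WT male 1; without WT female 3 it was 740. In the 12 libraries, leaving each out gave 0 to 2 Hox genes and 0 to 1082 of all genes, the highest of both without Q84 female 5. All genes called there were 614 with DESeq2, 0 in female libraries alone (1826 at an unadjusted p below 0.05), 15 without the filter and 193 without sex.

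Replicate numbers are shared by 3 pairs of female libraries, whose deviations from their group means correlated at -0.01, -0.13 and 0.09. These values gave no sign of pairing, but 3 pairs are too few to exclude it. Male libraries could not be checked in this way, since Q84 holds 1. With the replicate block 1 Hox gene passed in each set, Hoxd1, and 141 of all genes were called in the 12 and 154 in the 10. The block turned Hoxb5 to 0.12, Hoxc11 to -2.14, Hoxd10 to -0.87 and Hoxd11 to -0.38 in the 12, and Hoxc9 to -0.026 and Hoxd11 to 0.10 in the 10.

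Without sex in the model Hoxc11, Hoxd10 and Hoxd11 turned to -0.46, -0.64 and -0.48 in the 12. In the 10, Hoxd10 turned to 0.12 with DESeq2 and 1.30 in female libraries, and Hoxd11 to 0.15, 1.22 and, with length-scaled TPM, 0.074. With each library left out, the 12 gave -0.092 to 0.027 for Hoxb5, -0.030 to 0.38 for Hoxc9, -0.94 to 2.71 for Hoxc11, -0.71 to 1.52 for Hoxd10 and -0.53 to 1.14 for Hoxd11. The 10 gave -0.075 to 0.085 for Hoxb5, -0.11 to 0.24 for Hoxc8, -0.10 to 0.52 for Hoxc9, -1.83 to 0.84 for Hoxc11, -1.38 to 1.28 for Hoxd10 and -0.99 to 1.19 for Hoxd11. None of these passed.

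The share of groups 10 to 13 was 11.4% on coding transcripts and became 48.7% with group 9 added, which changes what is summed. Members detected per library averaged 31.3 at 0.1 TPM and 6.17 at 5 TPM. Values of groups 11 to 13 rest on few counts in most libraries.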
